A study of Mus musculus with 2 samples.

Results

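The CC chemokine cluster on chromosome 11 was represented by 9 genes, Ccl2, Ccl3, Ccl4, Ccl5, Ccl6, Ccl7, Ccl8, Ccl9 and Ccl12, chosen by gene symbol from the probe annotation of 2 microarrays with earlier results of these data known. They were 9 of the 12422 genes with a matched name and a signal well above background on each array (named genes from here on), and each had 1 probe. RNA came from murine macrophages differentiated from bone marrow in culture, here over 5 days in M-CSF supplied as CMG14-12 culture medium, and then given 100 ng/ml LPS for 5 h. LPS is the outer membrane glycolipid of Gram-negative bacteria and is sensed by Toll-like receptor 4. One preparation was labelled c-Maf+/-, with a single working copy of the gene for the transcription factor c-Maf, and the other c-Maf-/-, with none. Strain, age, sex, the deleted part of Maf and the number of mice pooled are not given in the sources used here, and neither array was of untreated or wild-type cells. Each genotype was measured on 1 array, so no test of genotype was possible and all differences are between these 2 preparations.

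CC chemokines are small secreted proteins with a pair of adjacent cysteines that attract leukocytes through G protein-coupled receptors. Their genes lie side by side as products of repeated duplication, and LPS switches on many of them in macrophages through NF-kB, a transcription factor family, and through interferon beta made by the same cells. CCL2, CCL7 and CCL12 bind CCR2 and attract monocytes. CCL3, CCL4 and CCL5 attract T cells and monocytes, and CCL6 and CCL9 bind CCR1, as does CCL3. CCL8 is a relative of CCL2 that in mice acts through CCR8.

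In c-Maf-/- macrophages Ccl8 and Ccl12, which lie next to each other, were at least 2-fold lower than in c-Maf+/- macrophages. The other 7 members lay within 2-fold. Ccl2 and Ccl7, which share a stretch of 79.5 kb with Ccl8 and Ccl12, were much closer to 0 on the log2 scale, and so were the 5 members of the second group, Ccl3, Ccl4, Ccl5, Ccl6 and Ccl9. Sequences upstream of Ccl8 and Ccl12 are shown first because these 2 genes differed most, with Ccl6, the member highest in c-Maf-/- relative to c-Maf+/-, for contrast. They are the 250 bases before the annotated start from RefSeq (build GRCm38.p6), read along the gene's strand, for Ccl8 at chr11:82114935-82115184 on the plus strand, for Ccl12 at chr11:82101595-82101844 on the plus strand and for Ccl6 at chr11:83593088-83593337 on the minus strand. Capitals mark matches to TGCTGA, a partial site of the Maf recognition element, on either strand (TCAGCA when read on the other strand). They also mark matches to TATAAA, the TATA box.
Ccl8: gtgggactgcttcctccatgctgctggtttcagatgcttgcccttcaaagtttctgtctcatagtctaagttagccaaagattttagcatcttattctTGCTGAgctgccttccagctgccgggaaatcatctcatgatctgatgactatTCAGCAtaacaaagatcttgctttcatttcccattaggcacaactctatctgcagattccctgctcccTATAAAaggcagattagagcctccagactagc
Ccl12: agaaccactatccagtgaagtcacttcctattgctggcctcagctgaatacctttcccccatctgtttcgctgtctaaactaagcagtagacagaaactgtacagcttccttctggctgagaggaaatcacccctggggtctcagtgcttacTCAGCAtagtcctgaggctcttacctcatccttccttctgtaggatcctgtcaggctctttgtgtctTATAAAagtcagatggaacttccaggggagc
Ccl6: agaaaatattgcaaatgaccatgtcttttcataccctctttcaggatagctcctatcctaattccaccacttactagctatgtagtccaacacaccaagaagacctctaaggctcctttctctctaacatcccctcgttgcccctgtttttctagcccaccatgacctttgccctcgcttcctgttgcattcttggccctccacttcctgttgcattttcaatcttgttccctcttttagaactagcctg

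The reference table of promoters held 5 of the 9 members, namely Ccl3, Ccl6, Ccl8, Ccl9 and Ccl12. In the Ccl8 window TGCTGA was found 2 times, at 152 to 147 bases before the start on the plus strand and at 100 to 95 bases before it on the minus strand. The Ccl12 window held it 1 time, at 98 to 93 bases before the start on the minus strand, within 2 bases of the place of the second Ccl8 match. TGCTGA was not in the windows of Ccl3, Ccl6 and Ccl9, and 16.1% of the 32851 promoter windows in the table held it. TATAAA stood at 32 to 27 bases before the start in Ccl8 and at 31 to 26 in Ccl12, and was also in the Ccl9 window (12.4% of all windows). Of the other motifs searched on both strands, an NF-kB motif of GGG and TTTCC separated by 2 bases of any kind (1.41% of windows), its looser form with any bases between GGG and TCC over the same length (16.5%), which overlapped it, and the AP-1 motif TGANTCA (6.75%) were each in the Ccl9 window and in no other of the 5. The interferon-response motif, GAAA and again GAAA with 2 bases between (2.98% of windows), the STAT motif TTCNNNGAA (7.02%) and the C/EBP motif TTGCNNAA (9.56%) were in none of the 5. These matches describe the letters of short windows and are not evidence of binding. Aligned end to end with gaps, the Ccl8 and Ccl12 windows were 56.9% identical, the highest of the 10 pairs. The next pair, Ccl3 and Ccl8, was at 54.2% and the lowest pair at 48.1%. How identical unrelated windows come out in such an alignment was not tested, so nothing is read from these values.

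The probes were 60 bases long, and the first 30 bases of those for Ccl8 and Ccl12 are given to show what was read, followed by that of Ccl2, which was measured in 10 spots.
Ccl8 probe: accagaagtctcaaattctgcagccttgaa
Ccl12 probe: cctgaagttccccacgggcagtgtgatatt
Ccl2 probe: tgtaggagtgaccagtgtgacagtgaacta

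By the file annotation (build mm9) these probes lie at positions 81930108 to 81930167, 81916764 to 81916823 and 81850650 to 81850709 of chromosome 11, on transcripts NM_021443, NM_011331 and NM_011333. Exon and UTR positions are not stated, since no mm9 gene models were used. No 2 member probes shared a run of more than 9 bases, but how far each probe also reads relatives' transcripts was not tested.

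Averaged over its 2 probes, Maf gave 2857 signal units in c-Maf+/- and 8.67 in c-Maf-/-, where it was not well above background, which makes it at least 120-fold lower and goes with the labels. Such a bound divides the bright signal by the dim one, or by the lowest signal called well above background on the dim array where that is larger. The share of non-control spots called well above background was 45.3% in c-Maf+/- and 44.9% in c-Maf-/-. No spot was saturated. All 12 macrophage markers examined were measured on both arrays, with 7 log2 differences below 0 and 5 above. Among them were Csf1r (-0.03 over 3 probes), Adgre1 (-0.40) and Cd68 (-0.40). Mertk (-1.91) and Marco (1.01) were past 2-fold. Being measured does not single out macrophages, since 12 of 14 neutrophil markers and 8 of 11 dendritic cell markers were measured too. Xist, which is expressed from the inactive X chromosome, was well above background in c-Maf+/- alone, at least 7.33-fold lower in c-Maf-/-. The Y-linked genes Ddx3y (0.50), Eif2s3y (0.64) and Uty (0.23) were measured on both arrays. Kdm5d, a further sex-linked gene, was not well above background on either array. Where the sex makeup of the 2 preparations differed, it and the genotype cannot be told apart in any value below.

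Signals are background-subtracted spot intensities in arbitrary units. A log2 difference is c-Maf-/- minus c-Maf+/- after each signal was divided by its array's 75th percentile, and 1 log2 unit is 2-fold. The scanner software's own error was 10% of each member signal, which makes 0.20 in a log2 difference.

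Ccl8, a monocyte and T cell attractant, gave 20477 signal units (software error 2048) in c-Maf+/- macrophages and 1772 (177) in c-Maf-/- macrophages. This left 8.50% of the c-Maf+/- level after scaling, an 11.8-fold lower level and a log2 difference of -3.56. It was the lowest value among the 12422 named genes. That ranking leaves out genes not well above background on an array, such as Maf, which was at least 120-fold lower. Because the members were chosen with the Ccl8 value in view, the rank is a description. The raw spot brightness, at 19022 and 1697, was far above the local background of 24 and 23, so the dimmer signal was also well measured.

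Ccl12, a CCR2 ligand that acts on mouse monocytes, gave 88509 signal units in c-Maf+/- and 25351 in c-Maf-/-. It stood at 28.1% of the c-Maf+/- level, 3.55-fold lower. Its log2 difference of -1.83 ranked 23rd from the lowest end of the named genes. Both signals were bright, and the difference was well beyond the software error of 0.20.

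Ccl7, another CCR2 ligand, gave 293418 and 221363 signal units, at a log2 difference of -0.43. Ccl2, the main monocyte attractant of the family, was the one member with replicate spots. Its 10 spots ranged from 301723 through a median of 345659 to 389443 in c-Maf+/-, and from 280807 through 323759 to 357693 in c-Maf-/-. The 2 ranges overlapped, yet after scaling on the 75th percentile each of the 10 spots was lower on the c-Maf-/- array at the same place, by log2 differences between -0.15 and -0.03 with a mean of -0.12 (SD 0.03 over 10 spots). Scaling on the spike-in transcripts turned that mean to 0.03. Spots of 1 array are technical repeats of 1 preparation. The spread over the array (SD 0.13 in log2 signal on each) was thus larger than the spread of the paired differences.

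Setting members against each other on the same arrays removes the scaling between arrays. Relative to Ccl2, the c-Maf-/- array had 10.9-fold less Ccl8 and 3.28-fold less Ccl12, and Ccl8 was lower than Ccl12 by a further log2 difference of -1.73. Relative to Ccl2, Ccl7 was at -0.32. The 4 genes of this group therefore differed unequally between the preparations, whatever the scaling.

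**Figure D1:**
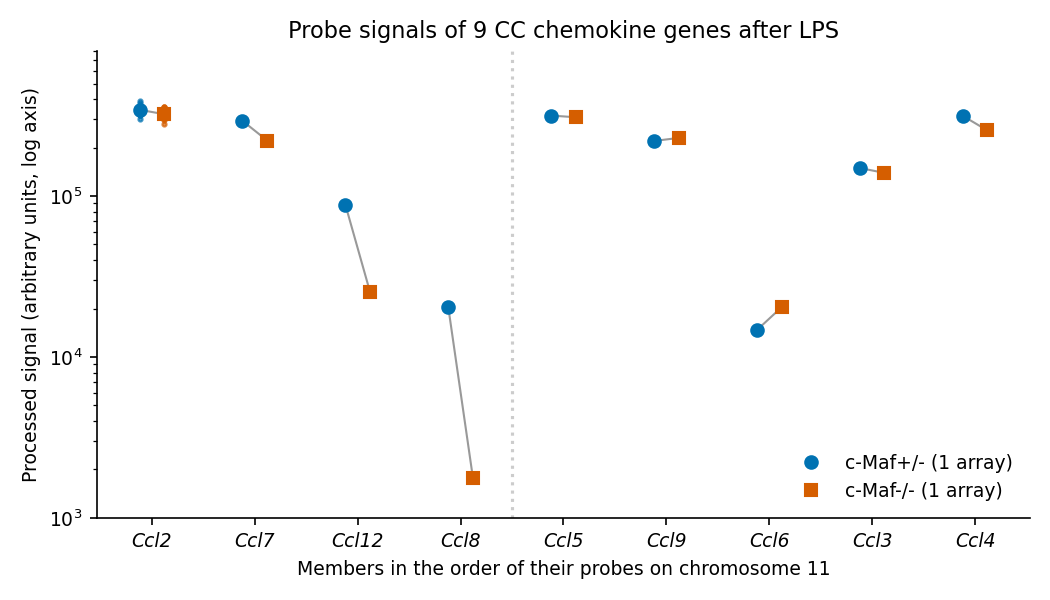
Processed signal (log axis) of the probe of each member in c-Maf+/- (circles) and c-Maf-/- (squares), joined by a line, in the order of the probes on chromosome 11; small dots are the 10 spots of Ccl2 and the dotted line separates the 2 groups of genes. Ccl8 went from 20477 to 1772 and Ccl12 from 88509 to 25351, while the lines of the other members are close to level.

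The second group held Ccl3, Ccl4, Ccl5, Ccl6 and Ccl9. Ccl3 and Ccl4, which encode the macrophage inflammatory proteins, had signals of 149390 and 315329 in c-Maf+/- and 139268 and 255749 in c-Maf-/-. Their log2 differences were -0.13 and -0.33. Ccl5, which attracts T cells and monocytes, was at 316393 and 308889, a difference of -0.06 that is within the software error.

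Ccl9 and Ccl6 encode the CCR1 ligands that mouse myeloid cells make without stimulation. Ccl9 had signals of 219967 and 229753 (0.04), again within the software error. Ccl6 was dimmer, at 14690 in c-Maf+/- and 20369 in c-Maf-/-, and was the member with the most positive difference, 0.45 or 1.36-fold higher. Against Ccl9 on the same arrays Ccl6 was higher by 0.41.

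In the order of differences, from Ccl8 over Ccl12, Ccl7, Ccl4, Ccl3, Ccl2, Ccl5 and Ccl9 to Ccl6, each step is a difference of 2 log2 differences, for which the software error comes to 0.29. The steps from Ccl8 to Ccl12 (1.73), from Ccl12 to Ccl7 (1.40) and from Ccl9 to Ccl6 (0.41) were larger than that. The remaining 5 steps, between 0.01 and 0.20, were not. This error is the software's own figure of 10% of each signal and not a spread measured here. Over 53 bright probes with at least 8 usable spots the median SD of the log2 difference was 0.04. Neither covers the spread between preparations, which is unknown. A step can be small because neither gene differed or because both differed alike, which a single pair of arrays cannot separate.

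As a set, 2 of 9 members were at least 2-fold lower and 0 were at least 2-fold higher. Over all named genes the shares past the same threshold were 1.74% lower and 1.42% higher. Since the members were picked knowing these values, nothing is read from that contrast. Among the 1834 named genes at least as bright as Ccl8, the dimmest member in the mean of both arrays, 1.2% were at least 2-fold lower and 0.273% higher. The median over the 9 members was -0.13 (0.020 with spike-in scaling), beside -0.02 for all named genes and -0.06 for those 1834 genes. Of the 9, 7 were below 0 and 2 above, and 53.8% of all named genes and 66.6% of the bright ones were below 0. With spike-in scaling 4 members were below 0 and 5 above.

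**Figure D2:**
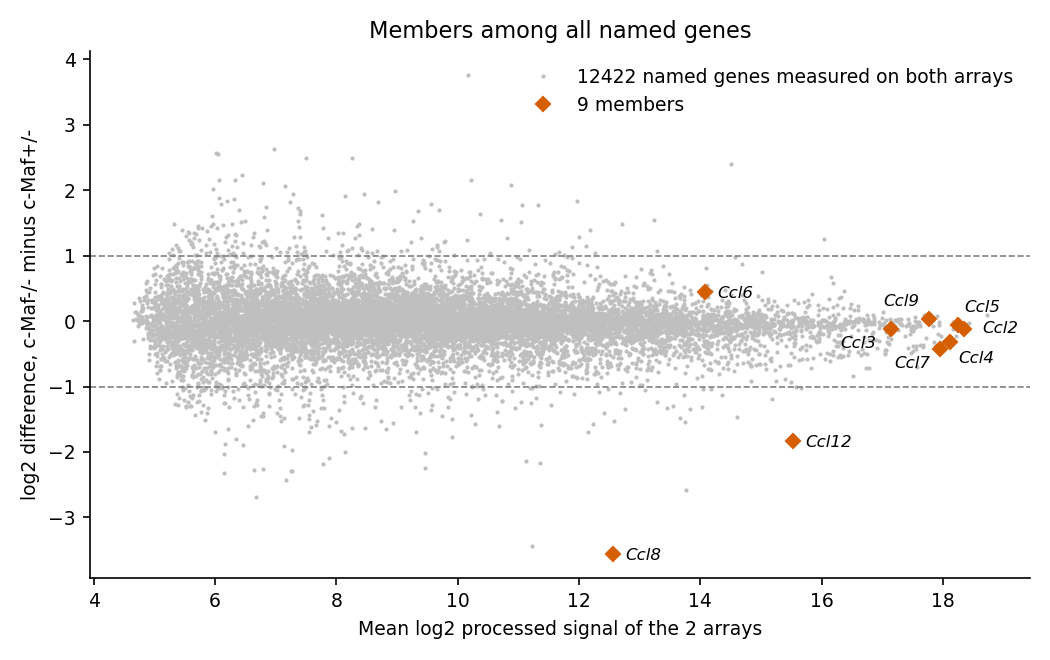
Log2 difference (c-Maf-/- minus c-Maf+/-) against the mean log2 signal of the 2 arrays for 12422 named genes (grey) and the 9 members (diamonds); dashed lines mark 2-fold. Ccl8 (-3.56) and Ccl12 (-1.83) lie below the 2-fold line, Ccl8 lowest of the named genes and Ccl12 with 22 of them below it. The bright end of the plot holds 6 members. Genes not well above background on an array, such as Maf, are not shown.

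The members Ccl2, Ccl3, Ccl4, Ccl5, Ccl7 and Ccl9 belonged to the 75 named genes at least as bright as Ccl3. In these 75 genes log2 differences ran from -0.71 to 0.10, with a 5th percentile of -0.43, a median of -0.08 and a 95th percentile of 0.06. Ccl7 ranked 4th from the lowest of them and Ccl4 14th, so both lay toward the lower end of equally bright genes. The highest signal of any non-control spot was 416494 in c-Maf+/- and 452593 in c-Maf-/-, and the brightest Ccl2 spot, at 389443, came close to that. Whether the top of the signal range narrows differences of these members was not tested.

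By position the members formed 2 groups 1409 kb apart. The first ran in the order Ccl2, Ccl7, Ccl12, Ccl8 along the plus strand of the chromosome, with log2 differences of -0.12, -0.43, -1.83 and -3.56. Within these 4 genes each was lower than the one before it. Ccl11, the eotaxin gene, lies between Ccl7 and Ccl12 and was not well above background on either array (signals of 4.82 and 5.16), nor was Ccl1, a CCR8 ligand gene beyond Ccl8, at both of its probes. Within 500 kb of this group 1 further gene was measured, the transmembrane protein gene Tmem132e (0.28), so few neighbours describe the region.

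The second group, from Ccl5 to Ccl4 over 139 kb, had differences from -0.33 to 0.45 with a median of -0.06. Within 500 kb of it 21 other genes or transcripts were measured on both arrays, with a median of 0.03. Some of these were probes without a matched gene name. Wfdc21, a whey acidic protein gene beyond Ccl4, was the 1 neighbour past 2-fold, at 6832 in c-Maf+/- and 14607 in c-Maf-/- (1.07). The remaining 20 ran from -0.52, at the Schlafen pseudogene Slfn10-ps, to 0.61, at Slfn1, a growth-regulating Schlafen gene.

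**Figure D3:**
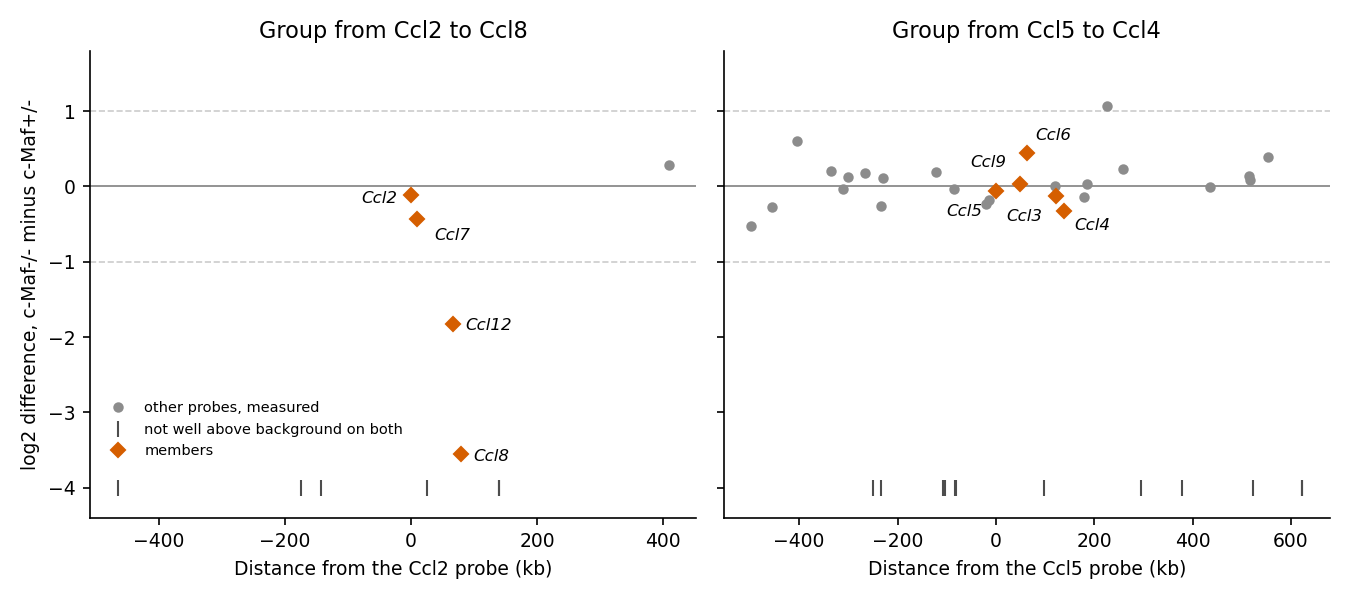
Log2 difference (c-Maf-/- minus c-Maf+/-) of measured probes within 500 kb of each group against distance from the Ccl2 probe (left) or the Ccl5 probe (right) in kb; diamonds are members, grey circles other probes, ticks at the bottom probes not well above background on both arrays, and dashed lines 2-fold. In the left group the differences go from -0.12 at Ccl2 to -3.56 at Ccl8, and in the right group all 5 members lie within 2-fold.

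Among 14 other CC chemokine genes, those outside the 9 members, 6 were measured on both arrays and 0 were past 2-fold, with a median of -0.61. That median was -0.33 with normexp, a model-based background correction here followed by quantile normalization, and -0.39 without background subtraction. It was 0.07 over 11 genes when dim probes were kept, so its direction is not settled. Ccl22 (-0.88) and Ccl24 (-0.81), which attract T helper cells and eosinophils, were farthest from 0, at signals of 157 and 77.6 in c-Maf+/- and 87.0 and 45.0 in c-Maf-/-. Both were dim, and with normexp their differences were -0.59 and -0.40. Ccl17, a CCR4 ligand gene, was at 0.09.

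Receptors through which the members act went both ways. Of 10 receptor genes 7 were measured, 3 at least 2-fold lower and 1 at least 2-fold higher in c-Maf-/-. Shares over all named genes were 1.74% lower and 1.42% higher. This list and those below were chosen with earlier results known, so nothing is read from that contrast. Ccr3, the eotaxin receptor gene, whose product also binds CCL5 and CCL7, went from 463 to 104 (-2.18). Ccr1, the receptor gene for CCL3, CCL6 and CCL9, went from 110 to 46.8 (-1.25), and Ccr1l1, a relative of it, from 254 to 127 (-1.03). Ccr2, the receptor gene for CCL2, CCL7 and CCL12, went the other way, from 1031 to 2139 (1.03). Ccr8, the receptor gene for CCL8, was at 0.21, and Ccrl2, which binds but does not signal, at -0.45. The scavenging receptor genes Ackr1, Ackr2 and Ackr4 were not well above background on either array. Ccr1, Ccr1l1 and Ccr2 each rested on 1 probe and lay within 2-fold without background subtraction (Ccr1l1 also with spike-in scaling), and Ccr1 and Ccr1l1 did so with normexp background correction.

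Factors that induce the members showed small differences on balance. Of 29 genes 28 were measured, with 22 below 0 (beside the 53.8% of all named genes and 66.6% of the bright ones), a median of -0.21 and 1 past 2-fold. With spike-in scaling 19 were below 0 and the median was -0.07. That one was Nfkbiz, which encodes a nuclear cofactor of NF-kB, from 1941 to 863 (-1.20). Irf1, an interferon-response transcription factor gene, was next at -0.99 over 2 probes (SD 0.49), or -0.58 with normexp. The NF-kB subunit genes were unequal, with Rel, a dim gene at 145 and 75.6, at -0.97 and Nfkb1 (-0.18), Nfkb2 (-0.22), Rela (-0.06) and Relb (-0.16) closer to 0. Ifnb1, the gene for interferon beta, had signals of 317 and 166 (-0.95), and Stat2 (-0.21) and Irf9 (-0.26), which carry its signal, were also below 0. Ticam2, a Toll-like receptor adaptor gene, was well above background in c-Maf-/- alone, at least 1.62-fold higher there. How these values bear on Ccl8 and Ccl12 was not tested.

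Proteins that trim or hold chemokines gave 3 genes at least 2-fold lower and 1 higher among 10 measured of 14. Over all named genes the shares were 1.74% lower and 1.42% higher. Mmp13, a collagenase gene, went from 33671 to 5719 (-2.58). Sdc4 (-1.35) and Tnfaip6 (-1.21), whose products bind chemokines or the sugars that hold them, were the other lower genes. Sdc1, the gene of another heparan sulfate carrier, was higher by 1.21. Of 8 genes for proteins that control chemokine mRNA decay, all were measured, 0 were past 2-fold and the median was 0.17 (0.07 with the brightest probe per gene and 0.32 with spike-in scaling). Zfp36l2 (0.75) and Zfp36 (-0.51), which encode related proteins that bind AU-rich elements, were farthest from 0.

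Leaving out provisional gene names, the genes whose difference was nearest to that of Ccl8 were Fgl2 (-3.43), Sly (-2.69) and Mmp13 (-2.58). Sly and Mmp13 were still 0.87 and 0.97 away from Ccl8. Sly, a Y-linked gene, went from 257 in c-Maf+/- to 40.5 in c-Maf-/-, while Ddx3y, Eif2s3y and Uty were higher in c-Maf-/-. How this bears on the sex makeup of the preparations was not tested. Nearest to Ccl12 were Cxcr3 (-1.80), Ptchd1 (-1.87) and Ankrd22 (-1.89), whose signals in c-Maf+/- were between 136 and 167. With 1 difference per gene, likeness says only how near the values are to each other.

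Markers of other cells differed beside the chemokines, in both directions. For comparison, 1.74% of all named genes were at least 2-fold lower in c-Maf-/- and 1.42% higher. Of 14 neutrophil markers 12 were measured, and 5 of them were at least 2-fold lower in c-Maf-/-, Ngp (-1.45), Ltf (-1.41), Prtn3 (-1.31), Mpo (-1.21) and S100a9 (-1.01). The other 7 lay within 2-fold, among them Elane (-0.03), Mmp8 (0.46) and Lcn2 (0.36), the brightest of the list at 71434 and 93372. Summed signals of the 14 were 183008 and 154973. The count of 5 fell to 2 with normexp, where S100a9, Mpo and Prtn3 were within 2-fold. S100a9 was within it in 5 of 10 alternatives. Of 11 dendritic cell markers 8 were measured and 3 were at least 2-fold lower, Fscn1 (-1.50), Itgax (-1.09) and Bcl11a (-1.06). Fscn1 alone of these was past 2-fold with spike-in scaling, with normexp and without background subtraction. Summed signals of the 11 were 44789 and 46610, carried by Siglech (41554 and 43949), and the other 7 measured markers summed to 3183 and 2627. Flt3 was at 24.5 and 34.7 and Xcr1 was not well above background on either array. Among monocyte and progenitor markers Cx3cr1 (1.27) and Ccr2 (1.03) were at least 2-fold higher and Cd34 (-1.21) lower, of 6 measured of 8. Within the macrophage list Mertk (-1.91) was lower and Marco (1.01) higher. Of the lymphocyte and NK cell markers 5 of 12 were measured, of the mast cell, basophil and eosinophil markers 5 of 10, and of the stromal and endothelial markers 6 of 8. In these 3 lists Siglecf was higher by 1.58, or 0.98 with normexp and 0.84 when dim probes were kept. Cpa3, a mast cell protease gene, went from 80.8 to 9.52 and Cdh5, an endothelial cadherin gene, from 65.8 to 28.9. Both were well above background in c-Maf+/- alone, at least 3.40-fold and 2.32-fold lower in c-Maf-/-. Lck (-0.94), Cd79b (0.52), Tpsb2 (-0.27, or 0.34 when dim probes were kept), Dcn (-0.95) and Col1a1 (-0.88) were within 2-fold. In bulk RNA, fewer cells of a type and less RNA per cell cannot be told apart, and the part of these cells in the Ccl8 and Ccl12 values was not tested.

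Across 10 alternative ways of processing the signals the 2 lower members kept their place. Ccl8 ran from -3.56 to -3.41 and Ccl12 from -1.85 to -1.68, past 2-fold in all 10. Of the 10, 6 change the scaling or the background and the other 4 can hardly alter a gene with 1 bright probe. Ccl7 (-0.45 to -0.29) and Ccl4 (-0.35 to -0.18) stayed below 0 and Ccl6 (0.44 to 0.59) and Ccl9 (0.04 to 0.18) above 0 in all 10. Ccl2 and Ccl3 turned positive with spike-in scaling (0.03 and 0.02), and Ccl5 was positive in 4 of the 10 (up to 0.09). Each of those 4 changed the scaling, since normexp was followed by quantile normalization, which alone gave 0.04 for Ccl5. Without background subtraction Ccl5 stayed at -0.04, so the direction of these 3 depends on the scaling. The 8 spike-in transcripts lay at a mean of -0.15, so scaling on them moved every difference up, including the median of all named genes, which became 0.12.

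**Figure D4:**
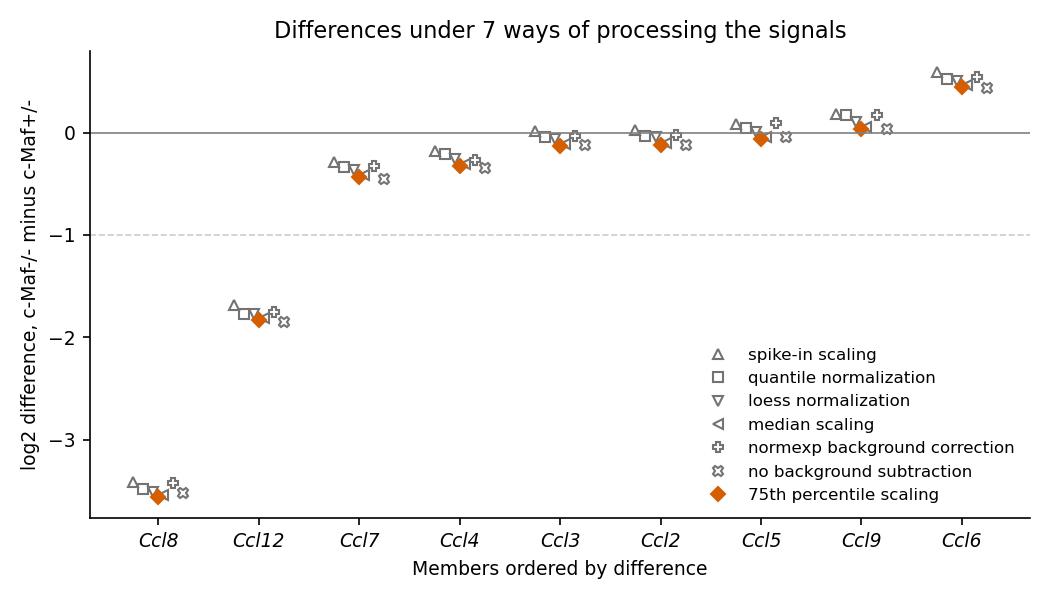
Log2 difference (c-Maf-/- minus c-Maf+/-) of the 9 members, ordered by difference, with scaling on the 75th percentile (diamonds) and under 6 alternative scalings or background treatments (open symbols); the solid line marks 0 and the dashed line 2-fold lower. Ccl8 stays between -3.56 and -3.41 and Ccl12 between -1.85 and -1.68, while Ccl2, Ccl3 and Ccl5 cross 0.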

How the data were processed

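Gene expression was measured on 2 one-colour Agilent arrays of design 028005, 1 per genotype, from 50 ng of Cy3-labelled total RNA each. Per the file headers, the deposited intensities come from protocol GE1_107_Sep09 of Agilent Feature Extraction, version 10.7.3.1, with background subtraction with spatial detrending and no normalization between arrays. The deposited 0 or 1 flags mark outliers, saturation and detection. The depth of an array is not a read count, so precision is limited by having 1 array per genotype.

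Here log2 of the processed signal minus that of the array's 75th percentile over 59305 non-control spots (signals of 291 and 296) was taken. Outlier spots (136 and 149) were dropped and spots of a probe averaged. A gene was the mean of its probes well above background on both arrays. Symbols were updated through RefSeq from the main accession for 28026 probes, the symbol for 3418, a further accession for 103 and a former symbol for 270. The 23864 probes without a match stayed out of counts of named genes but could enter as neighbours by position. With at least 8 usable spots, 227 probes gave a median SD of 0.07 in the log2 difference, or 0.04 for 53 bright ones.

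No p-value was computed. Genes were counted at 2-fold, and this step was tested on simulated data. The genes named are the 9 members, Maf, list genes past 2-fold and the 2 farthest from 0 in each list, neighbours past 2-fold, and the 3 nearest in difference to the 2 most different members; further genes of the lists, neighbours and the sex-linked genes were chosen after their values were seen. The members and lists were chosen with earlier results of these data known. Alternatives used limma 3.58.1 (normexp, offset 50, followed by quantile normalization), lowess from statsmodels 0.14.6, 8 spike-in transcripts, and other filters. Alignments used Biopython 1.88. A comparison of the members' proteins was planned and not run. A few genes of the lists are counted and not reported by name here.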

Additional observations from a re-analysis of the deposited data

How the results depend on the processing

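The count of 2 members at least 2-fold lower and 0 higher was the same under all 10 alternatives that gave a value. Using genes with at least 2 probes gave none, because each member has 1 probe. The median over the members was 0.020 with spike-in scaling, -0.038 with quantile normalization and -0.037 with normexp background correction, against -0.13, so its direction depends on the scaling. Of the 22 genes measured on both arrays and past 2-fold in the other lists, counts of 13 (normexp), 13 (no background subtraction) and 3 (genes of at least 2 probes) were found, the last because fewer genes enter. Over all named genes, 216 were lower and 177 higher. The lower and higher counts were 140 and 270 under spike-in scaling, 96 and 75 under normexp, 124 and 82 when background was kept in, 871 and 885 when dim probes were kept, and 32 and 17 when 2 probes were required. The cause of these shifts was not tested beyond the construction of each setting. No listed gene past 2-fold changed sign. Bcl11a was within 2-fold in 5 alternatives, S100a9 in 5, Itgax in 3, Tnfaip6 in 3, Siglecf, Mpo and Prtn3 in 2 each, and Marco and Cd34 in 1 each. No replicate could be left out, and no paired analysis was possible because each genotype has 1 array. Signal over background did not limit the members, whose dimmest signal was 1772, but it did limit Ccr1 and other dim genes.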
